A study of Homo sapiens with 22 samples.

Results

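Cohesin is a ring-shaped protein complex that holds DNA loops together, and Rad21 is the subunit that closes the ring. The regions described here are places where untreated K562 cells carried Rad21 together with acetylated histone H3 lysine 27 (H3K27ac) but no CTCF, and where no Rad21 peak was left after 72 h of phorbol 12-myristate 13-acetate (PMA). They were chosen from the 109111 regions of the Rad21 count table, of which 107902 lie on chromosomes 1 to 22 and X. A region was a member if it overlapped, by at least 1 bp, a Rad21 peak in both 0 h libraries and in neither 72 h library, an H3K27ac peak in both 0 h libraries, and no CTCF peak in any of 6 CTCF libraries. The rule found 1714 regions. They are called the lost sites below. The values that chose them, Rad21 at both times, H3K27ac at 0 h and CTCF peaks, are given as descriptions. Where calls on them are printed, the share over all regions stands beside them and nothing is read from the difference.

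K562 is an established human leukemia line with features of red cell precursors. All libraries came from the unmodified (WT) line without any edited clone, grown in RPMI with 10% FBS, and PMA was given at 25 nM, a treatment that drives these cells toward the megakaryocyte fate. Chromatin fixed with 1% formaldehyde was profiled with antibodies to H3K27ac, CTCF and Jun at 0, 6 and 72 h and to Rad21 at 0 and 72 h. The library titles carry the letters CNR. With 2 libraries in each of 11 groups there were 22 libraries, and nothing in the labels says that the 2 libraries of a group came from separate cultures, so the p-values measure the spread between these libraries, which may be technical. The 0 h groups are the untreated controls, no mock-treated time course was used here, and the line is a leukemia model, not normal bone marrow.

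At sites bound by CTCF, cohesin is held in place and anchors loops between distant sites. At sites without CTCF, cohesin is found mostly at active enhancers and promoters, where its loading factor and transcription factors gather. H3K27ac marks such active elements, and Jun is a subunit of AP-1, the transcription factor that PMA activates through protein kinase C. Red cell and megakaryocyte precursors share GATA1 and TAL1, transcription factors that act together at many enhancers of both lineages. GATA factors bind the letters AGATAA or similar ones, and in K562 cells they occupy many red cell gene enhancers.

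Promoter windows of RefSeq (GRCh38.p14, 250 bases before to 50 bases after a gene start) overlapped 212 of the 1647 lost sites on chromosomes for which windows were used. In the part before the start these windows held 28 places with AGATAA or its reverse complement TTATCT, at 26 lost sites. Jun was called lower at 72 h than at 0 h at 23 of these 26 sites, where 25.7% of all tested Jun regions were, and the other 3 had no tested Jun region. Most lost sites without these letters were called lower for Jun as well, as described below. The 6 stretches shown were chosen after their values were seen, 3 because they lie before the starts of red cell surface and regulator genes and 3 because the letters CTG stand 8 bases ahead of AGATAA, the spacing at which TAL1 and GATA1 are known to bind together. Each is 30 bases, 5′ to 3′ on the gene's strand, with the GATA letters in capitals.
RHD (chr1:25272421-25272450, plus strand): ccttgcagcctgAGATAAggcctttggcgg
RHCE (chr1:25420884-25420913, minus strand): ccttgcagcctgAGATAAggcctttggcgg
TAL1 (chr1:47232353-47232382, minus strand): cgcggcagtgccTTATCTctgcggcgcaca
PKLR (chr1:155301452-155301481, minus strand): tctgtctcccttAGATAAgaccagcagttt
HEPACAM2 (chr7:93219659-93219688, minus strand): tgcttttcctttTTATCTtgtgcaaccagc
GPR85 (chr7:113087859-113087888, minus strand): actgtgacatcaAGATAAggctttacctcg
The letters lie 53 and 76 bases before the starts of RHD and RHCE, the genes of the Rh blood group proteins, which are near-identical copies and share all 30 letters. They lie 35 bases before a start of TAL1, 31 before PKLR, the red cell pyruvate kinase, 105 before HEPACAM2 and 152 before GPR85.

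On both strands of the full 300-base windows, AGATAA was found in 34 of 279 windows at lost sites, or 12.2%. It was found in 7.44% of 632 windows at kept sites, which are the 1094 acetylated sites without CTCF that had a Rad21 peak in both libraries at 72 h as well. The share was 5.13% of the 10728 windows with an H3K27ac peak in both 0 h libraries and 10.3% of all 34961 windows. The TAL1 with GATA arrangement was in 3 windows at lost sites (1.08%), against 0.316% at kept sites and 0.275% of all windows. CCACCC, letters bound by KLF factors, was in 42.7% of windows at lost sites and 35.4% at kept sites. It was in 36.9% of the acetylated windows, those with an H3K27ac peak in both 0 h libraries, and in 34.3% of all windows. The AP-1 letters TGANTCA were in 3.23% (9 windows), against 5.06% at kept sites, 4.59% of the acetylated windows and 7.68% of all windows. The SP letters GGGCGG (71%) and the ETS letters GGAAGT (31.2%) stood at nearly the shares of the acetylated windows, 71.1% and 30.6%, and so did the GC content, with a median of 65% in both. TGTGGT, bound by RUNX factors, was in 8.24%, against 9.81% at kept sites, 9.03% of the acetylated windows and 13.1% of all windows. The E-box CANNTG was in 53%, against 57.9%, 58.6% and 68.7% in the same order. The core CTCF motif was in none of the 279 windows, none of the 632 at kept sites, 0.0746% of the acetylated windows and 0.0629% of all windows. A motif this rare cannot tell these sets apart, so nothing is read from its absence. Windows of 1 gene can overlap and some letters overlap each other's matches, so these shares describe letters only.

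Rad21 depth was 6459342 and 4398797 reads in regions at 0 h and 7285286 and 5863983 at 72 h. The 0 h libraries held 34680 and 59005 deposited peaks and the 72 h libraries 33048 and 25687. The shallower 0 h library thus had the most peaks, and the loss of a peak depends on how many were called: when the Rad21 lists were cut to equal length by their q-values, 895 regions met the rule, 787 of them among the 1714. Leaving out 1 Rad21 library gave 3962 and 3620 regions at 0 h and 2524 and 1988 at 72 h, replicates 1 and 2 respectively. H3K27ac peaks at 0 h lay in or within 5 kb of all 8 genes fixed as K562 markers, among them GATA1 and KLF1. They also lay at 3 of 3 epithelial markers, so acetylation at a marker gene does not tell cell types apart here.

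At the lost sites the median Rad21 level was 9.43 and 8.23 CPM (counts scaled to a common library size with TMM factors) in the 0 h libraries and 4.61 and 4.34 CPM in the 72 h libraries. At kept sites the 4 medians were 13.4, 11.8, 12.1 and 11.7 CPM. The median log2 fold change at lost sites was −1.01, with quartiles of −1.48 and −0.64 and a range from −3.88 to 0.79, against −0.08 at kept sites and −0.05 over all tested regions. Both 0 h libraries lay above both 72 h libraries at 1525 lost sites (89%), and 893 (52.1%) were called lower by edgeR, where 7.91% of all tested regions were called lower. The rule used this contrast, so nothing is read from that count. The mean CPM was at least 2-fold lower at 72 h at 866 sites (50.5%) and at least 4-fold lower at 142 (8.28%), and no lost site was at 0 counts in both 72 h libraries. In the authors' deposited table, 87 of the 109111 Rad21 regions were labelled down and 1898 up. Of those labelled down 36 were lost sites, which is 41.4% of that label and 2.1% of the lost sites. None of those labelled up were. The labels concern the same Rad21 libraries that chose the sites, so nothing is read from these counts either.

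**Figure D1:**
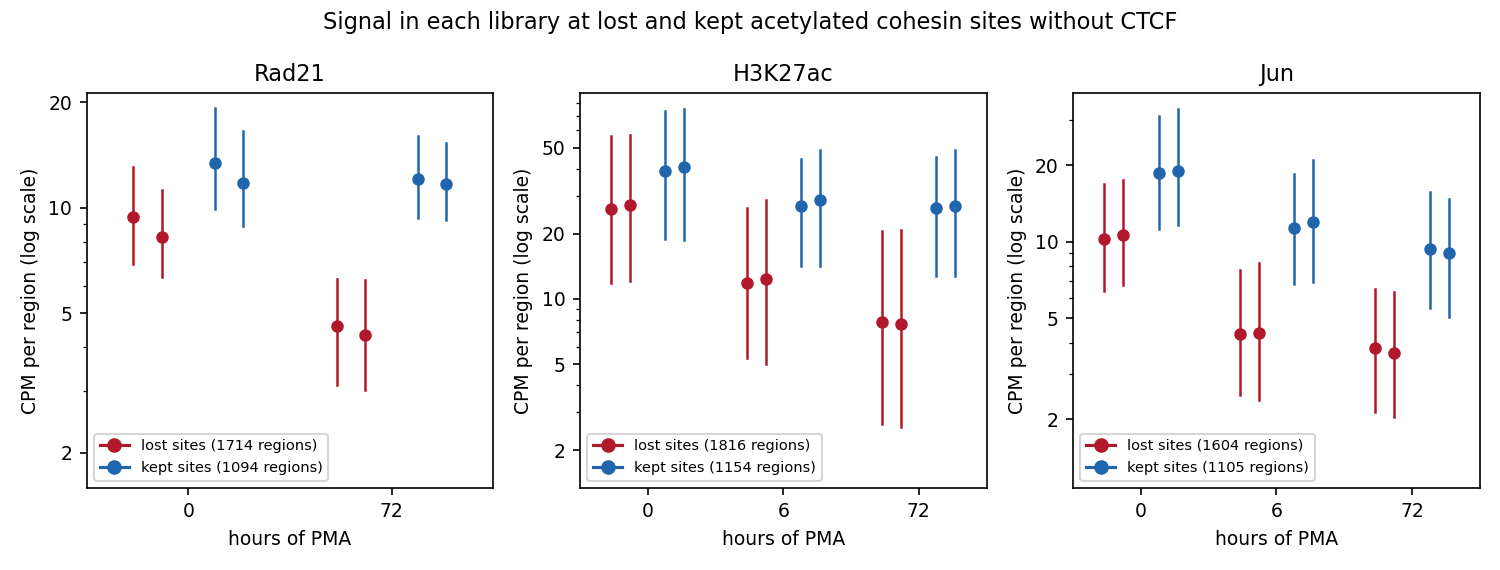
Median CPM per region (points) and quartiles (bars) in each library on a log scale, at lost sites (red) and kept sites (blue), for Rad21, H3K27ac and Jun against hours of PMA. At lost sites Rad21 goes from 9.43 and 8.23 to 4.61 and 4.34 CPM, while both kept and lost sites are lower for H3K27ac and Jun after PMA with this scaling.

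The peaks near the limits of the rule were weak. The median −log10 q of the authors' Rad21 peaks at lost sites was 8.46 and 7.72 in the 2 libraries at 0 h, and the lowest value of the weaker peak was 2.03. The lost site with the weakest peak lay in the span of TENT5D (chrX:80423964-80424431), with 6.92 and 5.7 CPM of Rad21 at 0 h and 1.34 and 1.7 CPM at 72 h. The next lay on chromosome 11 (46249384 to 46249912), with 10.4 and 10.3 CPM against 4.17 and 3.77 CPM. Just outside the rule, 4154 regions met all other terms with a Rad21 peak in only 1 of the 0 h libraries. The one with the highest Rad21 level, on chromosome 10 (133783097 to 133783848), had 23.3 and 32.3 CPM at 0 h and 21.4 and 19 CPM at 72 h. A further 1084 had a peak in 1 of the 72 h libraries, such as a region on chromosome 10 (30552037 to 30553609) with 60.7 and 33.3 CPM at 0 h and 16.2 and 16.4 CPM at 72 h.

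Most lost sites lay away from gene starts. A promoter window was overlapped by 12.9%, a gene span without a promoter window by 47.2% (44.5% of all Rad21 regions), and neither by 39.9% (47.4% of all). Among kept sites 39.5% overlapped a promoter window, and among 611 lost Rad21 sites with neither CTCF nor acetylation 3.07% did, against 8.02% of all Rad21 regions. The median distance to the nearest start was 16729 bp at lost sites, 5541 bp at kept sites and 26171 bp over all regions. More than 10 kb from a start were 60.4% of lost sites, 42.5% of kept sites and 70.7% of all regions. At lost Rad21 sites with neither CTCF nor acetylation the median distance was 26251 bp, and 70.9% lay more than 10 kb away. The rule asked for acetylation at 0 h, which marks active promoters and enhancers. Nothing is therefore read from the shorter distance at lost sites than over all regions. The median width of a lost site was 529 bp. The median distance to the nearest CTCF peak was 10557 bp, against 8701 bp at kept sites and 10713 bp at lost sites with neither CTCF nor acetylation. Within 50 kb of another lost site were 334 (19.5%), and within 10 kb 84 (4.9%).

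H3K27ac was then followed at the lost sites, to see whether acetylation went with Rad21. The 1714 sites overlapped 1816 regions of the H3K27ac table, all of which were tested. The median H3K27ac level was 26.1 and 27.1 CPM at 0 h, 11.8 and 12.4 CPM at 6 h and 7.85 and 7.67 CPM at 72 h. At kept sites it was 39 and 40.5, then 27 and 28.7, then 26.2 and 26.8 CPM. The libraries of each time point lay close together, and at lost sites no 2 time points overlapped in these medians.

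The change from 6 to 72 h used no value of the rule for H3K27ac. Of the 1816 regions, 1103 (60.7%) fell between these times, where 30.8% of all tested regions fell, and 220 (12.1%) rose, where 33.1% of all rose (edgeR's quasi-likelihood test with Benjamini-Hochberg adjustment at 0.05, here and below). The median log2 fold change was −0.6 at lost sites, −0.13 at kept sites and 0.02 over all regions. At kept sites 451 regions (39.1%) fell and 283 (24.5%) rose. Other lost Rad21 sites had medians close to that of the lost sites without CTCF. The median was −0.55 at the 227 regions of lost sites with CTCF and acetylation, of which 58.6% fell. It was −0.64 at the 100 regions of lost sites with neither, of which 32% fell, near the 30.8% of all regions. H3K27ac at those 100 regions was low, with medians of 1.19 and 1.16 CPM at 6 h and 0.724 and 0.692 CPM at 72 h. The scaling moved the zero point: TMM factors taken over only those regions that every library of the antibody has a peak in (common-peak factors below) put the median over all regions at 0.28 and that at lost sites at −0.34, with 397 regions higher, so that 68.8% of the called regions were lower, against 83.4% with TMM over all tested regions. Relative to all regions the lost sites' median was −0.62, a difference that a change of scaling cannot move because it shifts all regions nearly alike.

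The calls against 0 h, the time at which the rule asked for acetylation, are printed as a description, since a site chosen for a peak at 0 h is more likely to be lower later. Against 0 h, 1514 regions (83.4%) were called lower at 6 h, where 26.3% of all tested regions were, and 49 were called higher, where 32.3% of all were. At 72 h 1625 (89.5%) were called lower, against 38.1% of all, and 64 (3.52%) higher, against 43.4% of all. The median log2 fold change was −1.05 at 6 h and −1.6 at 72 h, or −1.25 and −1.79 relative to the medians of all regions, which stood at 0.2 and 0.18. At kept sites, chosen for 0 h acetylation in the same way, the medians were −0.49 and −0.68, and 66.5% and 73.2% of regions were called lower. With common-peak factors the median of all regions moved to 0.54 at 6 h and 0.79 at 72 h, and the medians at lost sites to −0.7 and −1. The medians of lost and kept sites differed by −0.56 at 6 h and −0.92 at 72 h, which a change of scaling leaves as it is. At 209 lost Rad21 sites with CTCF and acetylation the median at 72 h was −1.19.

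**Figure D2:**
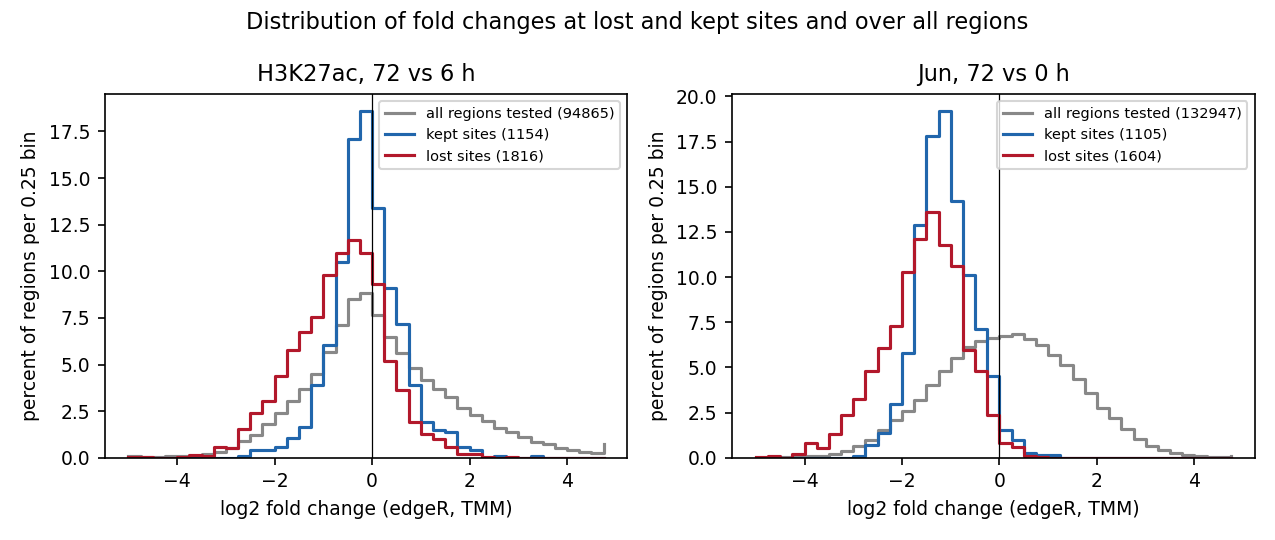
Log2 fold change (x axis, TMM scaling) against the percent of tested regions per bin of 0.25, at lost sites (red), kept sites (blue) and over all regions (grey), for H3K27ac from 6 to 72 h and Jun from 0 to 72 h, with values past the axis put in the outer bins. The medians at lost sites are −0.6 and −1.48, those at kept sites −0.13 and −1.16, and with common-peak factors the lost sites' medians are −0.34 and −0.69.

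Several courses were found among single lost sites. At 890 sites (51.9%) H3K27ac was lower at 6 h than at 0 h and fell again by 72 h. At 359 (20.9%) it was lower at 6 h with no later call, and at 144 (8.4%) it fell only after 6 h. At 179 sites (10.4%) it was lower at 6 h and rose again by 72 h, and 73 (4.26%) had no call in either step. H3K27ac peaks were still present in both libraries at 866 lost sites (50.5%) at 6 h and at 1071 (62.5%) at 72 h, against 82.4% and 95.2% of kept sites and 18.8% and 30.5% of all Rad21 regions. Of the 500 sites without a peak in either 6 h library, 132 (26.4%) had one in both libraries at 72 h. The 72 h libraries had 65267 and 66147 H3K27ac peaks and the 6 h libraries 36947 and 39680, so more peaks at 72 h do not show more signal.

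**Figure D3:**
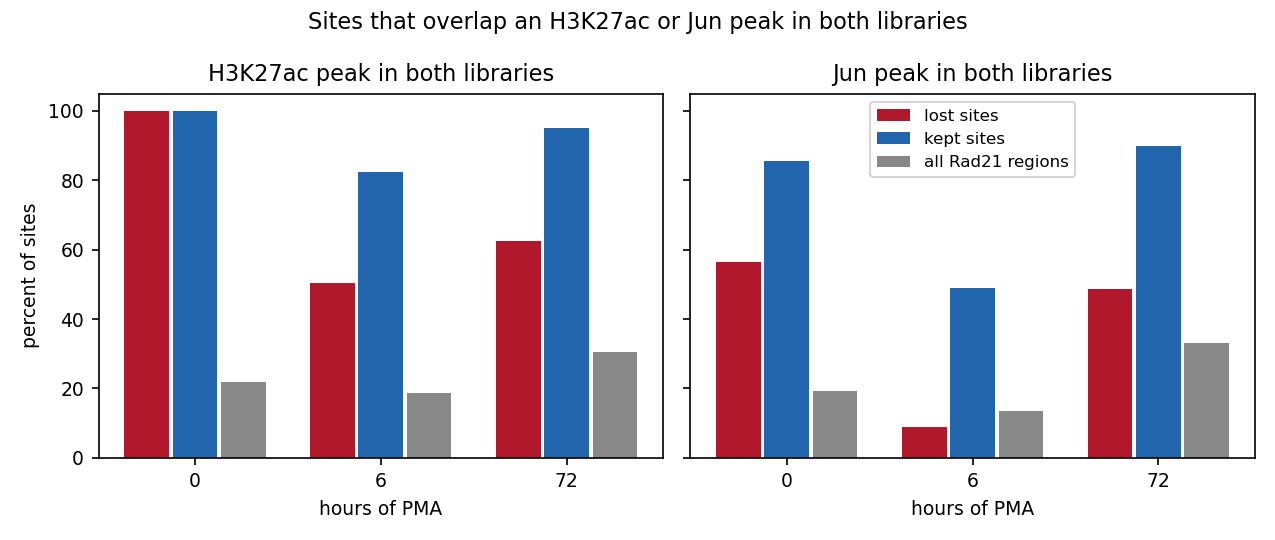
Percent of lost sites (red), kept sites (blue) and all Rad21 regions (grey) that overlap an H3K27ac peak (left) or a Jun peak (right) in both libraries of a time point, against hours of PMA. The H3K27ac bars at 0 h are at 100% for lost and kept sites because the rule asked for it, and the Jun share at lost sites is 56.3%, 8.93% and 48.6%.

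Jun was not part of the rule. A Jun peak in both libraries was found at 965 lost sites (56.3%) at 0 h, 153 (8.93%) at 6 h and 833 (48.6%) at 72 h. Kept sites had shares of 85.6%, 49% and 90%, and all Rad21 regions 19.2%, 13.4% and 33.2%. Reads in regions numbered 7952946 and 8600736 in the 0 h Jun libraries. The 6 h libraries had fewer, 4766421 and 5531183, and the 72 h libraries more, 17245043 and 18883962. Shares at kept sites and over all regions ran in the order of depth. At lost sites the share was higher at 0 h than at 72 h, against that order. Replicate 2 of 6 h had 35376 Jun peaks, which met 21.2% of lost sites. Replicate 2 of 0 h had 35072, which met 69.7%. Depth may still shape these shares, which was not tested. Of the 965 sites with Jun at 0 h, 638 (66.1%) had it again in both libraries at 72 h. Of 449 sites with no H3K27ac peak at 72 h, 289 (64.4%) had no Jun peak then, and of the 1071 with H3K27ac in both libraries 673 (62.8%) had Jun in both.

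By counts, the median Jun level at lost sites was 10.2 and 10.6 CPM at 0 h, 4.31 and 4.38 CPM at 6 h and 3.8 and 3.65 CPM at 72 h, and at kept sites 18.7 and 18.9, 11.3 and 12, and 9.32 and 9 CPM. Of 1604 tested Jun regions at the lost sites, 1057 (65.9%) fell by 6 h, where 12.2% of all tested regions fell, and 7 rose, where 13.1% of all rose. By 72 h 1406 (87.7%) were lower than at 0 h, against 25.7% of all, and 2 were higher, against 28% of all. The median log2 fold change at 72 h was −1.48 at lost sites, −1.16 at kept sites, where 83.2% of regions fell, and 0.17 over all regions. Lower Jun counts were also found at lost sites with neither CTCF nor acetylation (83.5% of regions, median −1.72) and at those with both (78.3%, median −1.24). These sizes rest on the scaling: total counts gave 1046 lower, 24 higher and a median of −0.92, and common-peak factors gave 870, 60 and −0.69, with medians over all regions of 0.73 and 0.96. Relative to all regions the lost sites' median was −1.29 at 6 h and −1.66 at 72 h, and a change of scaling, which shifts all regions nearly alike, says nothing about these differences. Between 6 and 72 h, 303 Jun regions were called lower, against 13.5% of all, and 36 higher, against 12.7% of all, but the direction turned with the scaling (82 lower and 136 higher with total counts), so no direction is given.

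H3K27ac and Jun were both lower at 72 h than at 0 h at 1281 lost sites, whose median Rad21 log2 fold change was −1.11. At 63 sites H3K27ac was higher at 72 h. Of these, 30 had lower Jun, with a median Rad21 change of −0.38, and 29 had no Jun call, with −0.23. At 134 sites H3K27ac was lower and no Jun region was tested.

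Lost sites at promoters had smaller median changes than the others in Rad21, in H3K27ac and, against 0 h, in Jun, which is given as a description with no test. The 212 sites with a promoter window had a median Rad21 log2 fold change of −0.57 and the 1435 others −1.09. For H3K27ac against 0 h, promoter sites had medians of −0.51 at 6 h and −0.94 at 72 h, the others −1.16 and −1.7. From 6 to 72 h they were −0.39 and −0.62, and H3K27ac rose at 4.72% of promoter sites and 13.7% of the others. Jun was lower at 6 h at 30.2% of the promoter sites with a tested Jun region and at 72% of the others. By 72 h the 2 shares were close, at 86.5% and 89.1%, with medians of −1.3 and −1.54. From 6 to 72 h the Jun change was larger at promoters, with medians of −0.61 and −0.3 and 31.8% and 17.5% of regions lower, in a contrast whose zero point moves with the scaling. H3K27ac peaks in both 72 h libraries remained at 87.3% of promoter sites and 58.8% of the others, whereas Jun peaks at 72 h were at 45.8% and 48.5%.

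Genes of 10 lists were then looked up at the lost sites, a site being given to a gene whose span it overlapped or that was nearest within 50 kb. A lost site near a gene need not act on it. There were 14 lost sites at 7 of 22 red cell membrane and receptor genes, 7 at 5 of 13 erythroid transcription factor genes, 6 at 5 of 21 heme and iron genes and 2 at 2 of 10 globin genes. Megakaryocyte transcription factors had 1 site at 1 of 11 genes, and platelet and adhesion genes 3 sites at 2 of 17. Cytokine and kinase signalling genes had 5 at 4 of 13, AP-1 and early response genes 2 at 2 of 19, and cell cycle genes 1 at 1 of 10. The 15 genes of cohesin and its regulators had none. The share of all genes with a lost site was not counted, and the lists were chosen with earlier results known. The rule also asked for acetylation at 0 h in a line with features of red cell precursors. Nothing is therefore read from the differences between lists. Between 6 and 72 h, where H3K27ac fell at 30.8% of all tested regions and 60.7% of those at lost sites, it fell at 12 and rose at 2 of the 14 red cell membrane sites (10 and 2 with common-peak factors), and fell at 6 of 6 heme and iron sites (5 with common-peak factors). Over the erythroid transcription factor sites 1 fell and 2 rose, and with those factors none fell and 5 rose. By 72 h Jun was lower than at 0 h at 25.7% of all tested regions and 87.7% of those at lost sites, so the list counts that follow are near those of the lost sites as a whole. It was lower at 12 of 12 red cell membrane regions (7 with those factors), 5 of 6 heme and iron regions (the sixth was higher with those factors) and 5 of 6 at erythroid transcription factor genes (there 3 lower and 1 higher with those factors).

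**Figure D4:**
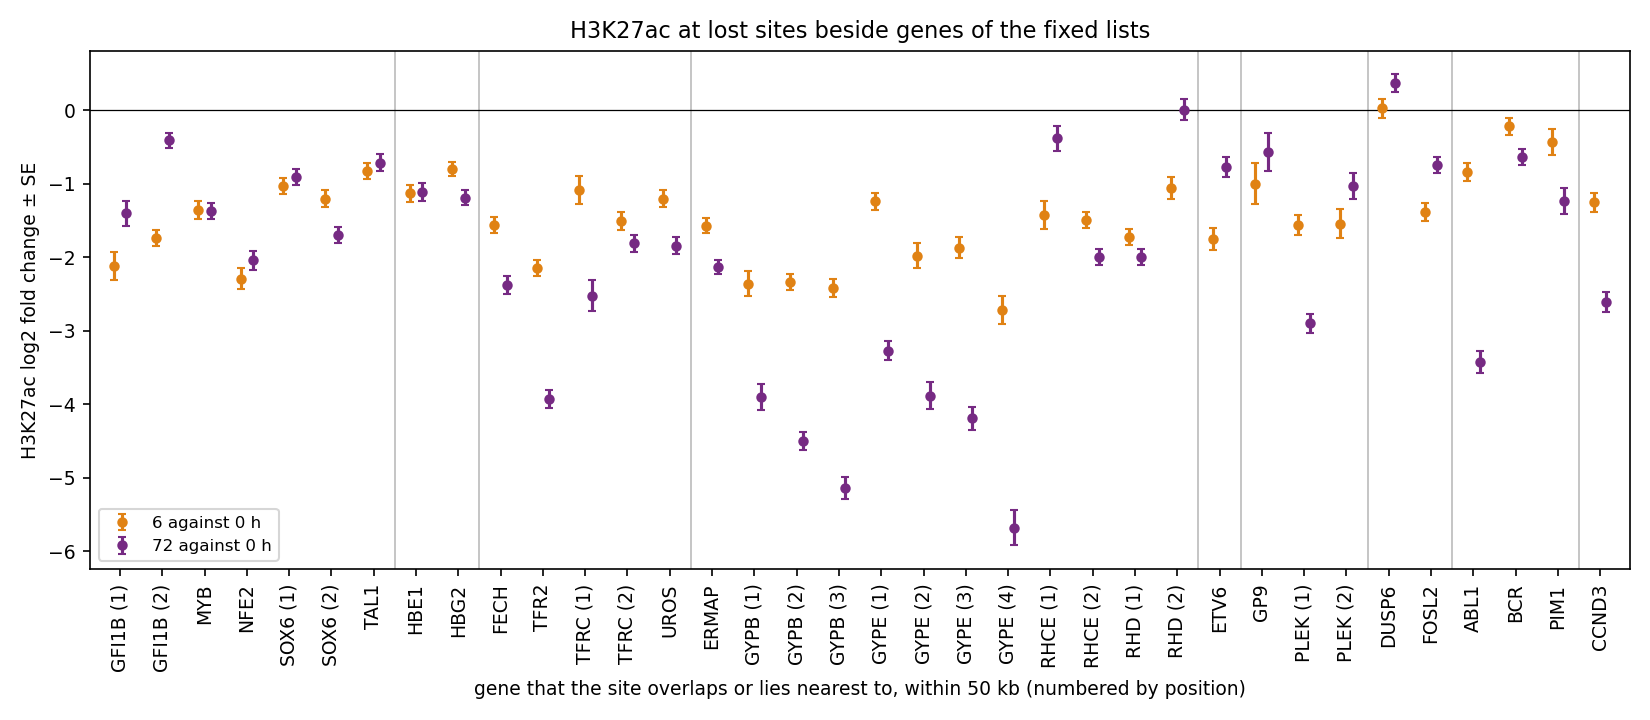
Log2 fold change of H3K27ac (y axis, TMM scaling, bars 1 SE) at 6 h (orange) and 72 h (purple) against 0 h at single lost sites near genes of the lists, with grey lines between lists in the order erythroid transcription factors, globins, heme and iron, red cell membrane, megakaryocyte transcription factors, platelet, AP-1, signalling and cell cycle. The 7 sites at GYPE and GYPB reach −5.68 to −3.27 at 72 h, while GFI1B (2), RHCE (1) and GP9 lie just below 0 and turn above it under another scaling.

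In the stretch of 500 kb with the most lost sites, 7 lay at the glycophorin genes GYPE and GYPB (chr4:143854415-144006974), which belong to a family of red cell surface proteins. The genes of this family are near-identical copies, so reads may be split among them and the values of single sites are uncertain. Rad21 at the 7 sites ranged from 7.23 to 23.9 and from 6.33 to 21.1 CPM in the 0 h libraries and from 0.595 to 5.8 and from 1.7 to 5.28 CPM in the 72 h libraries. At each of the 7 the log2 fold change lay between −2.61 and −1.83, which is lower than the quartile of all lost sites. H3K27ac ranged from 21.9 to 121 and from 19 to 124 CPM at 0 h, from 5.11 to 28.5 and from 3.64 to 31.4 CPM at 6 h, and from 0.29 to 6.77 and from 0.838 to 7.9 CPM at 72 h. It fell at all 7 between 6 and 72 h, with log2 fold changes from −2.96 to −1.54 (SE 0.13 to 0.31). The highest of these under any scaling run was −1.29.

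One of the 7 lies in the span of GYPB (chr4:144006324-144006974). Its Rad21 level was 21.1 and 17.7 CPM at 0 h and 4.02 and 4.9 CPM at 72 h. H3K27ac there was 58.1 and 59 CPM, then 11.2 and 10.7, then 1.48 and 1.82 CPM, with no overlap between time points and a log2 fold change from 6 to 72 h of −2.72 (SE 0.17, edgeR adjusted p 7.15e-13). Jun went from 11.7 and 9.32 through 2.72 and 3.65 to 1.09 and 0.806 CPM, a log2 fold change of −3.46 from 0 to 72 h (SE 0.32, edgeR adjusted p 3.89e-08).

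**Figure D5:**
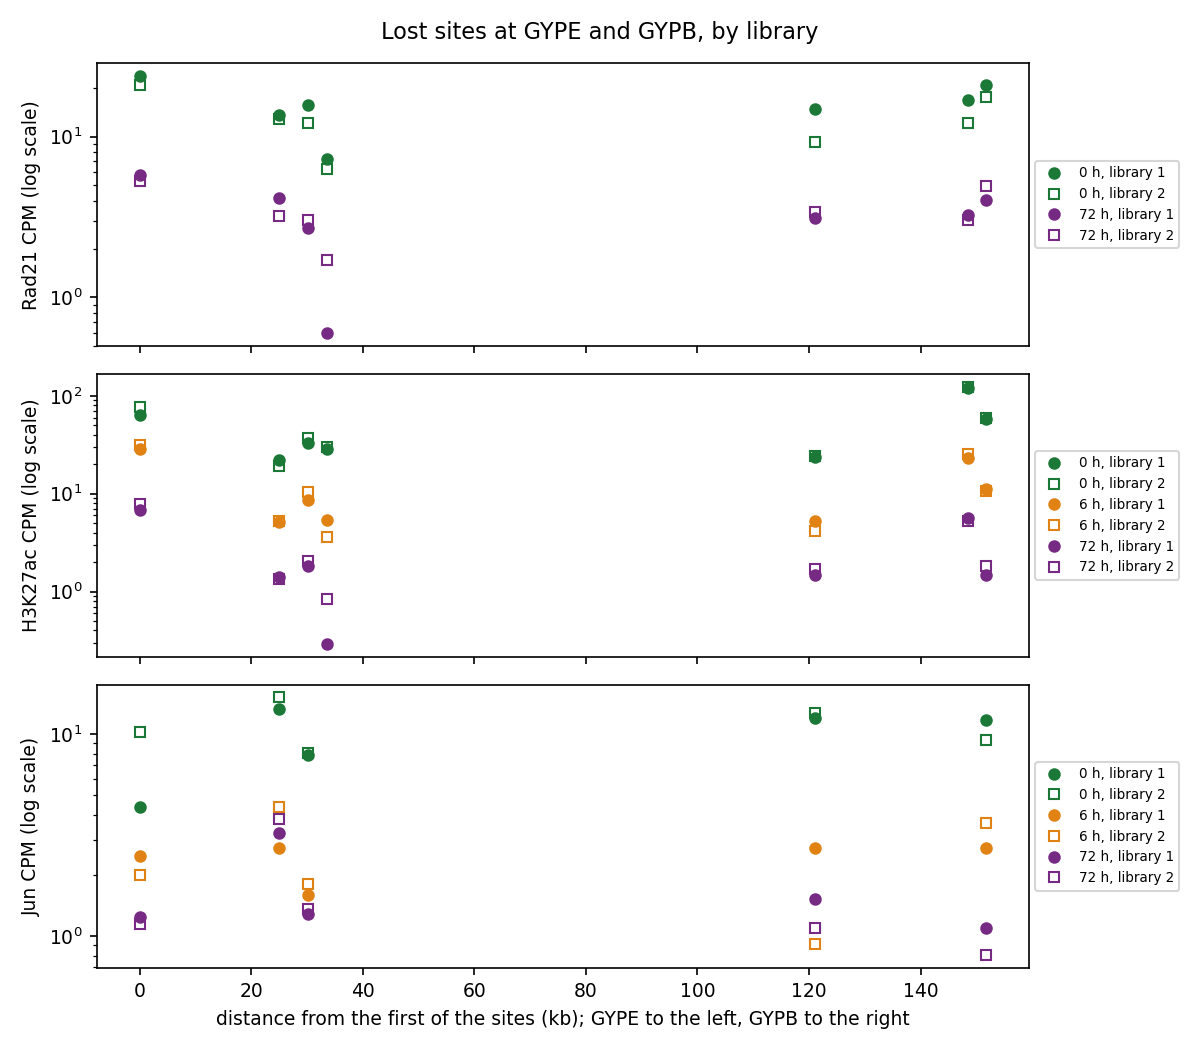
CPM on a log scale of Rad21, H3K27ac and Jun (5 tested sites) in each library at the 7 lost sites at GYPE and GYPB, against the distance from the first site in kb, with colours for hours of PMA and filled and open symbols for the 2 libraries. Both 72 h libraries lie below both 0 h libraries at every site shown for the 3 antibodies, and H3K27ac at 6 h lies between.

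Other red cell surface genes were spread over 2 courses. At the promoter of ERMAP, a blood group membrane protein (chr1:42824973-42825689), Rad21 was 26.6 and 19.8 CPM at 0 h and 10.4 and 8.67 CPM at 72 h. H3K27ac was 144 and 146, then 48.7 and 49, then 32.3 and 33.9 CPM, and fell from 6 to 72 h by 0.56 in log2 (SE 0.11, edgeR adjusted p 5.84e-05). At the RHCE promoter (chr1:25420650-25421319), which holds the GATA letters shown above, Rad21 was 15.4 and 11.6 CPM against 8.63 and 5.84 CPM. H3K27ac there was 75.9 and 85.7, then 28.3 and 29.2, then 20.1 and 20.5 CPM. The RHD promoter (chr1:25272201-25272757) had 59.4 and 61.1, then 18.6 and 18, then 14.7 and 15.6 CPM of H3K27ac, and its Rad21 libraries at 72 h differed most, at 6.4 and 2.64 CPM after 8.81 and 7.81 CPM at 0 h. Sites inside the same pair of genes took another course. In the span of RHD (chr1:25322806-25323377) H3K27ac was 18.3 and 14.9 CPM at 0 h, 7.42 and 8.42 CPM at 6 h and 15.4 and 18 CPM at 72 h, a rise from 6 to 72 h of 1.07 in log2 (SE 0.15, edgeR adjusted p 1.17e-06). The site in RHCE (chr1:25368078-25368609) rose by 1.04 (SE 0.19, edgeR adjusted p 3.67e-05). Reads of RHD and RHCE may be split between the copies.

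Among heme and iron genes, the site in TFR2, a transferrin receptor that senses iron in red cell precursors (chr7:100641299-100641720), stood apart. Its H3K27ac was 159 and 176 CPM at 0 h, 39 and 36.9 CPM at 6 h and 10.7 and 11.3 CPM at 72 h, a log2 fold change from 6 to 72 h of −1.78 (SE 0.12, edgeR adjusted p 2.24e-12). Its Jun level was 13.3 and 15.9, then 1.13 and 2.19, then 0.761 and 1.06 CPM, a log2 fold change of −3.98 from 0 to 72 h (SE 0.3, edgeR adjusted p 7.53e-09), and lay between −4.09 and −3.19 over the scalings. Rad21 at that site was modest, at 7.08 and 7.81 CPM before and 2.98 and 1.7 CPM after. In UROS, an enzyme of heme synthesis (chr10:125816087-125817240), Rad21 was 16.5 and 16.7 CPM at 0 h and 6.7 and 4.52 CPM at 72 h, and H3K27ac 60.1 and 64.1, then 26.9 and 27.2, then 17.7 and 17.1 CPM. In FECH, which puts iron into heme (chr18:57583533-57583860), H3K27ac was 52.8 and 52.9, then 17.5 and 18.4, then 9.56 and 10.8 CPM. In all 3 the time points did not overlap.

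The PKLR promoter (chr1:155301319-155301917), with the TAL1 and GATA arrangement, had Rad21 at 9.43 and 11.6 CPM at 0 h and 2.83 and 4.15 CPM at 72 h. Its H3K27ac was 78.1 and 72.4, then 17.6 and 23.4, then 2.14 and 4.04 CPM, and fell from 6 to 72 h by 2.74 in log2 (SE 0.19, edgeR adjusted p 3.29e-12). HEPACAM2 (chr7:93219484-93220230) had 29.9 and 23.2 CPM of Rad21 against 4.61 and 6.41 CPM. Its Jun level went from 52.8 and 54.6 through 12 and 10.4 to 6.8 and 7.6 CPM, a log2 fold change of −2.9 (SE 0.19, edgeR adjusted p 2.95e-09). At GPR85 (chr7:113087209-113087969), which holds the same arrangement, Rad21 counts barely differed, at 14.5 and 11.4 CPM at 0 h and 12.2 and 13.2 CPM at 72 h, and the libraries overlapped. H3K27ac at GPR85 was 41.8 and 41.6, then 20.6 and 23.4, then 25.5 and 25.9 CPM. The shared letters thus stood at 2 promoters with a large drop and at 1 with overlapping Rad21 values.

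At globin genes both lost sites were in the beta-globin cluster. The site at HBG2, a fetal globin gene (chr11:5254709-5255080), had 16.8 and 12.2 CPM of Rad21 at 0 h and 8.93 and 9.05 CPM at 72 h. Its H3K27ac was 70 and 70.3, then 40 and 40.4, then 30 and 31.6 CPM, and its Jun fell from 14.3 and 13.5 to 3.09 and 4.58 CPM at 72 h, which is −1.85 in log2 (SE 0.24, edgeR adjusted p 2.1e-06). HBG2 and its neighbour HBG1 are near-identical copies, so its reads may be split. The site 5737 bp from HBE1, the embryonic globin gene (chr11:5275683-5276157), had 17 and 12 CPM of Rad21 against 7.14 and 7.35 CPM. There H3K27ac was 106 and 104 CPM, then 42.2 and 53.3, then 44.3 and 53.3 CPM, so 6 and 72 h overlapped.

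At the erythroid transcription factor sites the median H3K27ac log2 fold change at 72 h was −1.37, against −1.6 over all lost sites, a difference that was not tested. The TAL1 promoter (chr1:47231543-47232680) lost its Rad21 peaks with nearly equal counts, 21.4 and 23.2 CPM at 0 h and 20.4 and 17.9 CPM at 72 h. H3K27ac there was 163 and 168, then 85.6 and 102, then 97.5 and 105 CPM, so that 6 and 72 h overlapped. Jun at TAL1 was 24.6 and 25.1, then 17.9 and 16.2, then 12 and 10.7 CPM, a log2 fold change of −1.13 at 72 h (SE 0.19, edgeR adjusted p 3.34e-05) that lay between −1.22 and −0.34 over the scalings. The site 5902 bp from NFE2, a subunit of a factor needed for globin and platelet genes (chr12:54306918-54307409), had H3K27ac of 35.7 and 34.1, then 7.07 and 7.19, then 8 and 8.96 CPM, with Rad21 at 14 and 12 CPM against 7.44 and 6.22 CPM. Beside GFI1B, a repressor used by both lineages (chr9:133003924-133004494), H3K27ac was 63.9 and 69 CPM at 0 h, 20.2 and 19.5 CPM at 6 h and 50.1 and 50 CPM at 72 h. That rise from 6 h was 1.33 in log2 (SE 0.11, edgeR adjusted p 1.12e-10), while Rad21 was 17.6 and 7.6 CPM before and 4.02 and 3.02 CPM after. Near MYB, a factor of immature blood cells (chr6:135230735-135231246), H3K27ac was 44.6 and 49.9, then 17.4 and 19.4, then 17.1 and 19.5 CPM.

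On the megakaryocyte side, lost sites lay at ETV6, GP9 and PLEK. In ETV6, a repressor that megakaryocytes need (chr12:11798902-11799329), H3K27ac was 25 and 23.6 CPM, then 5.81 and 8.37, then 14.9 and 13.7 CPM, and rose from 6 to 72 h by 0.98 in log2 (SE 0.15, edgeR adjusted p 5.43e-06). Rad21 at this site, 6.6 and 7.6 CPM at 0 h, was lower in both 72 h libraries. The site in the span of GP9, part of the platelet receptor for von Willebrand factor (chr3:129054509-129055080), had low H3K27ac throughout, 4.43 and 4.06, then 1.82 and 2.36, then 2.32 and 3.39 CPM. Near PLEK, a target of protein kinase C in platelets, the site 12301 bp away (chr2:68352405-68352980) had H3K27ac of 40.3 and 39.1, then 13.2 and 13.6, then 5.94 and 4.7 CPM. The other PLEK site, 5860 bp away (chr2:68403314-68403738), had 9.43 and 12, then 3.71 and 3.64, then 4.96 and 5.5 CPM. That was a rise from 6 to 72 h of 0.51 in log2 (SE 0.2, edgeR adjusted p 0.0322), a call lost under DESeq2 and total counts. The site near FOSL2, an AP-1 subunit (chr2:28366572-28367024), had 39 and 42.2, then 15.7 and 15.6, then 23.3 and 25.4 CPM, a rise from 6 to 72 h of 0.64 in log2 (SE 0.12, edgeR adjusted p 4.22e-05).

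K562 cells carry amplified copies of a fusion of BCR and ABL1, and lost sites lay at both partners. In ABL1 (chr9:130824505-130825653) Rad21 was 40.9 and 44.5 CPM at 0 h and 25.3 and 29.4 CPM at 72 h. H3K27ac there was 34 and 31.3, then 19.9 and 16.9, then 3.15 and 2.88 CPM, and fell from 6 to 72 h by 2.6 in log2 (SE 0.15, edgeR adjusted p 2.33e-13). At the BCR promoter (chr22:23180245-23180753) Rad21 was 34.9 and 31.7 CPM against 22.3 and 19.2 CPM, and H3K27ac 72.7 and 78.1, then 69.6 and 59.9, then 48.6 and 49.1 CPM. The BCR promoter thus kept more of its 0 h acetylation at 72 h than the ABL1 site did. In CCND3, a D-type cyclin (chr6:41957113-41957668), Rad21 was 12.3 and 10.3 CPM at 0 h and 2.23 and 3.39 CPM at 72 h, and H3K27ac 28.2 and 30.5, then 12.6 and 12.1, then 5.14 and 4.48 CPM.

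The lost site with the highest Rad21 at 0 h was in SGMS1, a sphingomyelin synthase gene (chr10:50326531-50327720), with 67.8 and 61 CPM against 26.2 and 19.6 CPM at 72 h. Its H3K27ac was far above the median, at 830 and 798 CPM, then 291 and 360, then 242 and 265 CPM. The next named sites without a gene within 50 kb were on chromosome 2 (242179952 to 242180946) and chromosome 6 (15915142 to 15916164), the latter with 39.3 and 34.2 CPM against 13.5 and 12.6 CPM.

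Single sites at both ends of the H3K27ac change from 6 to 72 h were taken from those that were called, had a mean level at or above the median of tested regions and had libraries that did not overlap, so regions at lost sites with larger changes, down to −7.25 and up to 2.84 in log2, are not among them. Of the sites with the lowest change, that in NCR1, a receptor gene of natural killer cells (chr19:54898551-54899145), kept 8.4 and 6.64 CPM at 6 h, after 11.4 and 9.54 CPM at 0 h, and had 0.362 and 0.219 CPM at 72 h. Its log2 fold change from 6 to 72 h was −4.65 (SE 0.3, edgeR adjusted p 1.44e-12). In DSTYK, a kinase gene (chr1:205156960-205157527), H3K27ac was 32.8 and 37.6, then 10.6 and 10.9, then 1.3 and 0.838 CPM. Next to OAT, ornithine aminotransferase (chr10:124420402-124421301), it was 34.6 and 37.1, then 4.62 and 3.79, then 0.29 and 0.401 CPM. Both sites were already lower in both 6 h libraries than at 0 h, the OAT site by the larger factor. Jun at the OAT site was 10.6 and 12.5 CPM at 0 h, 0 and 1.09 CPM at 6 h and 0.571 and 0.382 CPM at 72 h.

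At the other end, the 5 sites with the largest rises under these limits rose from 6 to 72 h, each after a lower value at 6 h. The site 28194 bp from TSPAN5, a tetraspanin gene (chr4:98686806-98687366), had H3K27ac of 24.8 and 29.5, then 12.8 and 14.3, then 60.1 and 66.9 CPM, a rise of 2.22 in log2 (SE 0.12, edgeR adjusted p 6.35e-14). Rad21 at this site was 7.55 and 7.18 CPM at 0 h and 9.38 and 6.41 CPM at 72 h, so its libraries overlapped although its peaks were no longer called. The site 24725 bp from UBE2F, an enzyme of protein neddylation (chr2:237941919-237942288), had 27.5 and 29.9, then 9.8 and 8.61, then 40.5 and 45.8 CPM, and the site in IL22RA2, a decoy receptor gene (chr6:137170195-137170941), 42 and 40.9, then 5.32 and 6.3, then 24.2 and 23.7 CPM. The remaining sites, in HPR and near UGT2B28, rose by 2.2 and 2.32 in log2.

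The 2 lost sites at which Jun rose from 0 to 72 h were in GAB2, an adaptor of cytokine receptor signalling (chr11:78314374-78314851), and 18443 bp from IL6R, the interleukin-6 receptor gene (chr1:154386514-154386899). Jun in GAB2 was 13.6 and 16.2 CPM at 0 h, 31.6 and 38.3 CPM at 6 h and 24 and 22.5 CPM at 72 h, which is 0.64 in log2 above 0 h at the last time (SE 0.2, edgeR adjusted p 0.00873). H3K27ac in GAB2 was lower throughout PMA, at 111 and 113, then 77.9 and 90.3, then 67 and 65.8 CPM. Near IL6R Jun was 3.94 and 6.45, then 8.17 and 7.85, then 9.84 and 8.02 CPM, with 0.78 (SE 0.26, edgeR adjusted p 0.0161). Both calls were lost under DESeq2 and kept their direction under all scalings run. The lowest Jun change at a named site that was outside a gene span was near CYTL1 (chr4:5003309-5003928), from 11.4 and 17.3 CPM through 0.908 and 1.82 to 0.523 and 0.552 CPM, a log2 fold change of −4.71 (SE 0.34, edgeR adjusted p 5.44e-09).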

How the data were processed

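Peak lists per library and, for each antibody, a table of whole-number read counts per region were deposited by the authors. Per the submitters' processing notes the tools were Trim Galore 0.4.3, BWA 0.7.17, SAMtools 1.9, deepTools 3.0.1, MACS2 and bedtools 2.26. The counting tool is not given in the sources used here. The notes name builds hg19 and hg38, and the chromosome 20 regions reach 64331078, so coordinates were read as GRCh38. The deposited peaks carry −log10 p and q values and a fold enrichment (ratio), and the deposited tables carry the authors' log2 fold changes and adjusted p-values, which were not used for tests. Deposited peaks were called per library.

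Region counts were fitted with edgeR 4.0.16 (TMM, filterByExpr, quasi-likelihood test, all times of an antibody, no replicate block, adjusted p under 0.05 over all regions) in R 4.3.3, checked on simulated data. DESeq2 1.42.0, total counts, TMM factors over regions in which every library had a peak, a mean count of at least 50, no filter, single libraries left out and other peak rules were alternatives. Each SE was worked back from the quasi-likelihood test, as the absolute log2 fold change divided by the square root of its F statistic. Region totals were 2553677 to 27266241 reads per library. Replicate numbers did not pair libraries: deviations of same-numbered libraries correlated at −0.00841 to 0.124, the 2 values over 0.1 both for CTCF. The authors' region labels were used for Rad21 only.

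Named sites were the highest in Rad21 at 0 h, the extremes of H3K27ac from 6 to 72 h and of Jun from 0 to 72 h, up to 4 sites per gene list, the densest 500 kb stretch and sites at the limits of the rule. RHD, RHCE, FECH, MYB, PKLR, HEPACAM2 and GPR85 fall outside this and were chosen after their values were seen. The 5 kb flank for marker genes was also set then. Sites on 1 chromosome are counted but not named, and some results at single genes are not reported here. Members, lists and tests were chosen with earlier results of these data known. Motif windows around peak summits were not analysed here, and only promoter windows were searched.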

Additional observations from a re-analysis of the deposited data

How the results depend on the processing

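The number of lost sites was 1714, and a stricter peak threshold (1535), an overlap of at least 0.5 of the region or the peak (1398) or leaving out 1 H3K27ac or CTCF library changed it by less than 1.5 times. Rad21 lists of equal length gave 895. With those, H3K27ac calls were 812 lower and 14 higher at 6 h, 869 lower and 20 higher at 72 h, 582 lower and 104 higher from 6 to 72 h, and Jun calls 619 lower and 3 higher (median −1.29) at 6 h, 790 lower (median −1.56) at 72 h and 177 lower from 6 to 72 h. Fewer sites enter there. Total counts moved the Rad21 median from −1.01 to −1.2. They gave H3K27ac 128 higher and −0.72 at 6 h, 106 and −1.37 at 72 h and −0.7 from 6 to 72 h, and Jun 14 higher and −1.03 at 6 h, 24 and −0.92 at 72 h, and 82 lower, 136 higher and a median of 0 from 6 to 72 h. Common-peak TMM factors gave H3K27ac 131 higher and −0.7 at 6 h, 199 and −1 at 72 h, and 397 and −0.34 from 6 to 72 h. The share of lower among called H3K27ac regions from 6 to 72 h went from 83.4% to 68.8% with them. For Jun they gave 14 higher and −1.06 at 6 h, 870 lower, 60 higher and −0.69 at 72 h, and 42 lower, 318 higher and 0.26 from 6 to 72 h. DESeq2 gave H3K27ac 25 higher and −1.12 at 6 h, −1.56 at 72 h and −0.48 from 6 to 72 h, and Jun 3 higher and −1.29 at 6 h, none (0) higher and −1.58 at 72 h, and 154 lower, 9 higher and −0.4 from 6 to 72 h. A mean count of at least 50, which leaves fewer regions, gave H3K27ac medians of −0.94, −1.4 and −0.53 and Jun medians of −1.12, −1.28 and −0.19, with 839 lower and 4 higher Jun regions at 72 h and 186 lower and 59 higher from 6 to 72 h. Fitting only the 2 time points compared gave medians against 0 h of −1.01 (6 h) and −1.53 (72 h) with H3K27ac and −1.27 and −1.58 with Jun. With peaks of −log10 q of at least 5, the H3K27ac medians were −1.56 at 72 h and −0.55 from 6 to 72 h, and 3 Jun regions were higher at 6 h. The cause of these shifts was not tested.

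Leaving out single libraries gave 1717 to 3962 sites and Rad21 medians of −1.07 to −0.7 (the latter without 0 h replicate 1). For H3K27ac at 6 h it gave 30 to 46 higher and medians of −1.12 to −1.02. For Jun it gave 3 to 12 higher and −1.31 to −1.14 at 6 h, 0 to 4 higher and −1.57 to −1.47 at 72 h, and 61 to 285 lower, 8 to 35 higher and −0.37 to −0.31 from 6 to 72 h. The fit with the replicate block gave a Rad21 median of −1.01, 1526, 1628 and 1113 lower H3K27ac regions and 1030, 1382 and 281 lower Jun regions. Same-numbered libraries share only a number, and no count of calls moved by over 1.5 times with the block. Depth was lowest for CTCF (from 2553677 reads), where a site without a peak may hold CTCF below the callers' threshold: 182 lost sites (10.6%) overlap a region of the CTCF table.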
